A study of Mus musculus with 8 samples.

Results

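Integrins and laminins are the cell surface receptors and the sheet-forming matrix proteins through which tumour cells, stromal cells and blood cells hold on to their surroundings. The set described here holds every gene of the platform annotation whose symbol is that of an integrin alpha chain, an integrin beta chain or a laminin chain, read from probes that the annotation ties to 1 symbol only. It came to 34 genes of 18193 genes measured, of which 24 were integrin chains and 10 laminin chains. Itga11 and Itgad also carry such symbols but had no probe of this kind and are not analysed here. By the cells in which each chain is best known, 8 members were classed as epithelial, 9 as blood cell, 8 as stromal and vascular, and 9 as broadly expressed.

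The samples were mammary tumours of female FVB/N-Tg(MMTV-PyVT)634Mul/J mice, genotype MMTV-PyMT, in 2 groups. The 4 SKI606 samples came from mice dosed by mouth with 100 mg/kg of SKI606, which is bosutinib, a drug that blocks kinases of the Src and Abl families, and the 4 vehicle samples from mice dosed with vehicle alone. No age and no length of treatment is stated in the sources at hand. In both groups the MMTV promoter drives the polyoma virus middle T antigen in the mammary epithelium, so each sample is a bulk mixture of a transgene-driven tumour and its stroma. The labels speak of RNA per mouse without naming the animals. All p-values therefore describe the spread among these 8 samples only, and part of it could be technical.

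An integrin is a pair of an alpha and a beta chain. The pair spans the membrane, binds matrix or a counter-receptor outside the cell, and is tied to actin or keratin filaments inside it, where focal adhesion kinase and Src act. In the mammary gland, alpha 6 beta 4 anchors epithelium to the basement membrane at hemidesmosomes, the beta 1 pairs link cells to laminin, collagen and fibronectin, and the beta 2 pairs are found on leukocytes. A laminin is a trimer of an alpha, a beta and a gamma chain. Laminin-332, which holds the chains of Lama3 and Lamb3, lies under epithelium, and laminins with the alpha 4 chain lie around blood vessels.

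Gene expression was read on 1 Affymetrix mouse array per sample, and precision is limited by having only 4 arrays in a group. Array medians of the recovered signals were 15 to 16 in SKI606 samples and 15 to 23 in vehicle samples. The luminal markers were bright throughout, with a summed normalized signal of 26069 to 31624 in SKI606 samples and 28131 to 31790 in vehicle samples. SKI606 samples 1 and 4 and vehicle sample 3 stood apart. Squamous keratinization markers summed to 21360, 23400 and 14932 in these 3 samples and to at most 2105 in the other 5. On the first principal component over all probes, which held 34.0% of the variance, SKI606 samples 1 and 4 scored 81.1 and 72.4, and the other samples -38.5 to -14.8. Vehicle sample 3 scored -81.0 on the second component and had the array median of 23, against at most 18 elsewhere. Each class below is therefore also given without these 3 samples.

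As a set, most integrin and laminin genes read higher in the tumours of SKI606 mice than in those of vehicle mice, but no single gene passed the test. Fold changes are log2(signal + 16), SKI606 minus vehicle, followed by the SE (4 samples a group), a scale that understates the change of dim genes. Of the 34 members, 29 lay above 0, against 47.1% of all genes, with a median of 0.47 against -0.02 over all genes. In limma, 0 members and 0 of all genes (0%) had an adjusted p under 0.05, the smallest among members being an adjusted p of 0.522 for Lama4. At an unadjusted p under 0.05, 13 members (38.2%) were higher, against 6.07% of all genes, and 1 member (2.94%) was lower, against 4.31% of all genes. The count of 13 depended in part on which sample was left out. It was 7 without SKI606 sample 4, 8 without SKI606 sample 1, 7 without vehicle sample 2 and 6 without vehicle sample 3. These counts were 17.6% to 23.5% of members, against 3.63% to 4.59% of all genes in the same fits. The count was 15 without vehicle sample 1 or SKI606 sample 2, 14 without SKI606 sample 3 and 11 without vehicle sample 4. Without the 3 samples that stood apart the count was 0 (0% against 2.06% of all genes). There 27 of 34 members lay above 0, with a median of 0.20. All 4 SKI606 values lay above all 4 vehicle values in 5 members, namely Itgax, Itgb5, Lama4, Itga9 and Lamb1 (14.7%, against 2.39% of all genes), and below them in 0 members (2.03% of all genes). Of the single samples, SKI606 sample 4 held the highest value of 17 members, and vehicle sample 3 the lowest value of 18.

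**Figure D1:**
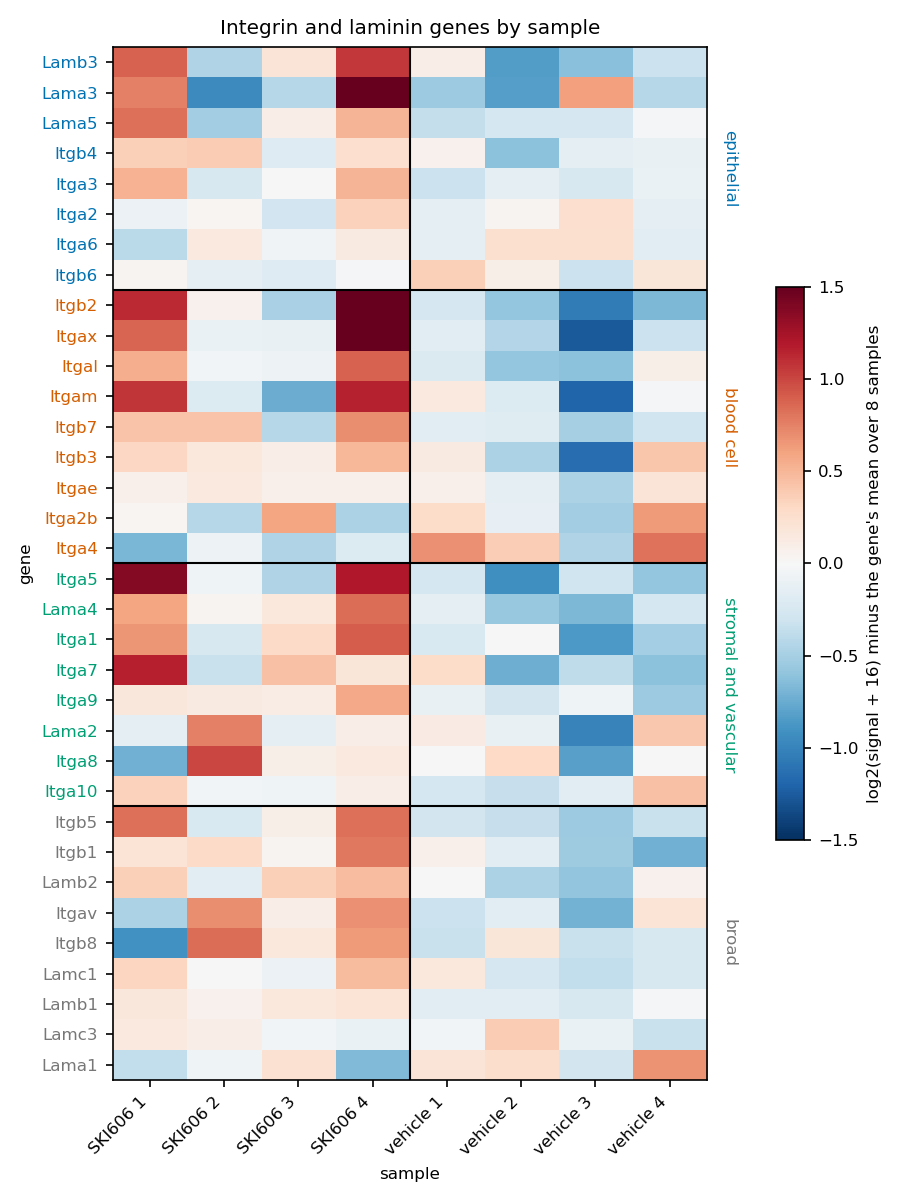
Each row is a member and each column a sample, with the 4 SKI606 samples left of the line and the 4 vehicle samples right of it. Colour gives log2(signal + 16) minus the mean of that gene over the 8 samples, and values beyond 1.5 take the end colour. Averaged over all members, SKI606 samples 1 and 4 are the reddest columns and vehicle sample 3 the bluest, most clearly among the blood cell members. Among the epithelial members vehicle sample 3 is instead the highest vehicle sample. Among the broad members SKI606 sample 1 is the lowest SKI606 sample.

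**Figure D2:**
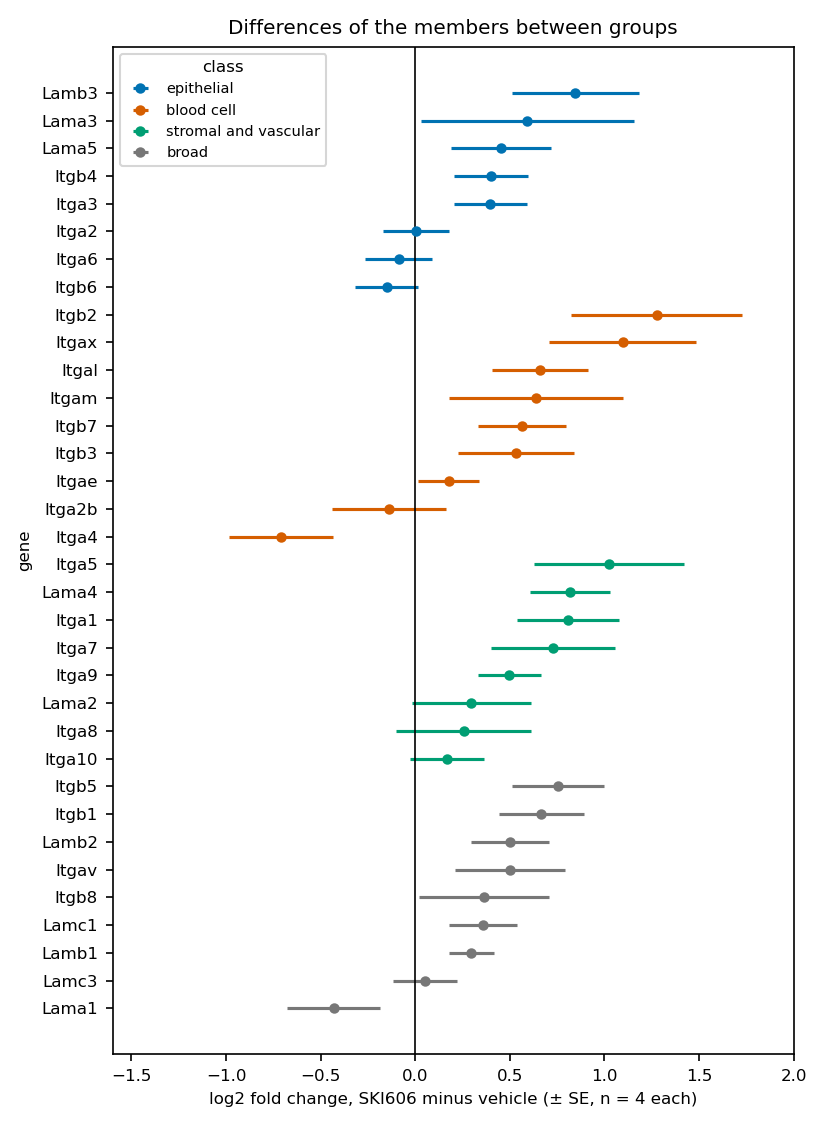
Points are log2 fold changes of the 34 members, SKI606 minus vehicle, and bars span 1 SE to each side (4 samples a group). Itgb2 at 1.27 lies farthest right and Itga4 at -0.71 farthest left, and 29 of 34 points lie above 0.

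The blood cell members held the largest fold change of the set, that of Itgb2, and also the lowest, that of Itga4, and 0 of them passed the adjusted test. Of 9 blood cell members 7 lay above 0, with a median of 0.57. Itgb2 encodes the beta 2 chain, CD18, shared by the integrins of leukocytes. Its normalized signal was 602.5, 281, 187 and 1005 in SKI606 samples 1 to 4, against 223, 174, 121 and 162 in vehicle samples 1 to 4. SKI606 samples 4 and 1 were far above the rest and SKI606 sample 3 lay within the vehicle range, giving a log2 fold change of 1.27 ± 0.45.

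Itgax encodes CD11c, the alpha chain of dendritic cells and of some macrophages, which pairs with beta 2. It read 274, 132, 131 and 442 in SKI606 samples, against 124.6, 101, 50.2 and 110.5 in vehicle samples. The groups did not overlap, but SKI606 samples 2 and 3 exceeded vehicle sample 1 by little, and the log2 fold change was 1.10 ± 0.39. Itgal, the alpha chain of LFA-1 on lymphocytes and other leukocytes, was dimmer, at 78.2, 47.0, 45.5 and 103 in SKI606 samples, against 39.8, 27.1, 26.2 and 52.8 in vehicle samples. Its log2 fold change was 0.66 ± 0.25, and vehicle sample 4 lay above SKI606 samples 2 and 3.

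Itgam, which encodes CD11b of macrophages and neutrophils, was dim, at a mean signal of 28.4. It read 65.4, 17.5, 7 and 70.1 in SKI606 samples, against 26.6, 17.5, 0.875 and 22.2 in vehicle samples. Only SKI606 samples 1 and 4 exceeded the highest vehicle sample, and the log2 fold change was 0.64 ± 0.46. Without the 3 samples that stood apart it was -0.45. Leaving out 1 sample took it to 0.35 without vehicle sample 3 and to 0.99 without SKI606 sample 3, with moves of over 1.5 times also without SKI606 sample 1 or 4.

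The lymphocyte chains were dim and did not share a direction. Itga4 and Itgb7 form the gut-homing integrin of lymphocytes, and Itgae pairs with Itgb7 to bind E-cadherin on epithelium. Itgb7 read 16.5, 16.5, 2 and 23 in SKI606 samples, against 5.62, 5.25, 1.12 and 3.62 in vehicle samples, a log2 fold change of 0.57 ± 0.23. Itga4 had the opposite direction, with 1.12, 10.1, 4.12 and 8 in SKI606 samples, against 28.5, 19.5, 4.25 and 32.5 in vehicle samples. Its log2 fold change was -0.71 ± 0.27, while the other 4 probe sets of the gene, all dimmer, lay between -0.22 and 0.29. Itgae read 28.5, 30.8, 28.5 and 28.5 in SKI606 samples, against 28.5, 22.4, 14.5 and 32.5 in vehicle samples. These overlap, and its log2 fold change of 0.18 ± 0.16 was 0.05 without vehicle sample 3 and was 0.27 without vehicle sample 4.

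Of the platelet pair, Itga2b ranged from 52.4 to 127 in SKI606 samples and from 50.2 to 132 in vehicle samples, a log2 fold change of -0.14 ± 0.30, which was 0.05 without vehicle sample 4 and -0.36 without SKI606 sample 3, and also moved by over 1.5 times without vehicle sample 1 or 3 or SKI606 sample 2 or 4. Its partner Itgb3, found on endothelium and osteoclasts too, stood at 0.53 ± 0.31, and at 0.24 without vehicle sample 3. Platelet markers, a list that includes Itga2b, had 4 of 8 members above 0 and a median of -0.04.

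Leukocyte markers were higher in the same samples as the blood cell members. Of 10 general leukocyte markers 9 lay above 0, with a median of 0.90, and the pan-leukocyte phosphatase gene Ptprc stood at 0.91 ± 0.40. Their summed signal was 4083 to 9219 in SKI606 samples and 3673 to 4252 in vehicle samples, with 0 of the 10 below a mean signal of 16. Macrophage markers were above 0 in 12 of 12, with sums of 9894 to 23763 in SKI606 samples and 6235 to 12559 in vehicle samples. T cell markers were above 0 in 12 of 12, with sums of 264 to 372 in SKI606 samples and 103 to 224 in vehicle samples, and 5 of these markers had a mean signal under 16. Neutrophil markers were above 0 in 8 of 11 and B cell markers in 3 of 6. In bulk RNA more cells of a type and more RNA per cell cannot be told apart, and the part of cell content in the integrin values was not tested. Vehicle sample 3 was lowest in 8 of 9 blood cell members, and the part of its high array median in that was not tested. Without vehicle sample 3 the class median was 0.35. Then 0 blood cell members had an unadjusted p under 0.05 on the higher side, against 4 with all samples. Over all genes that count also fell, from 1105 to 728 of 18193. The 4 members, Itgb2, Itgax, Itgal and Itgb7, then stood at 1.14, 0.86, 0.56 and 0.50, with unadjusted limma p of 0.053 to 0.088. With all samples they stood at 1.27, 1.10, 0.66 and 0.57.

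**Figure D3:**
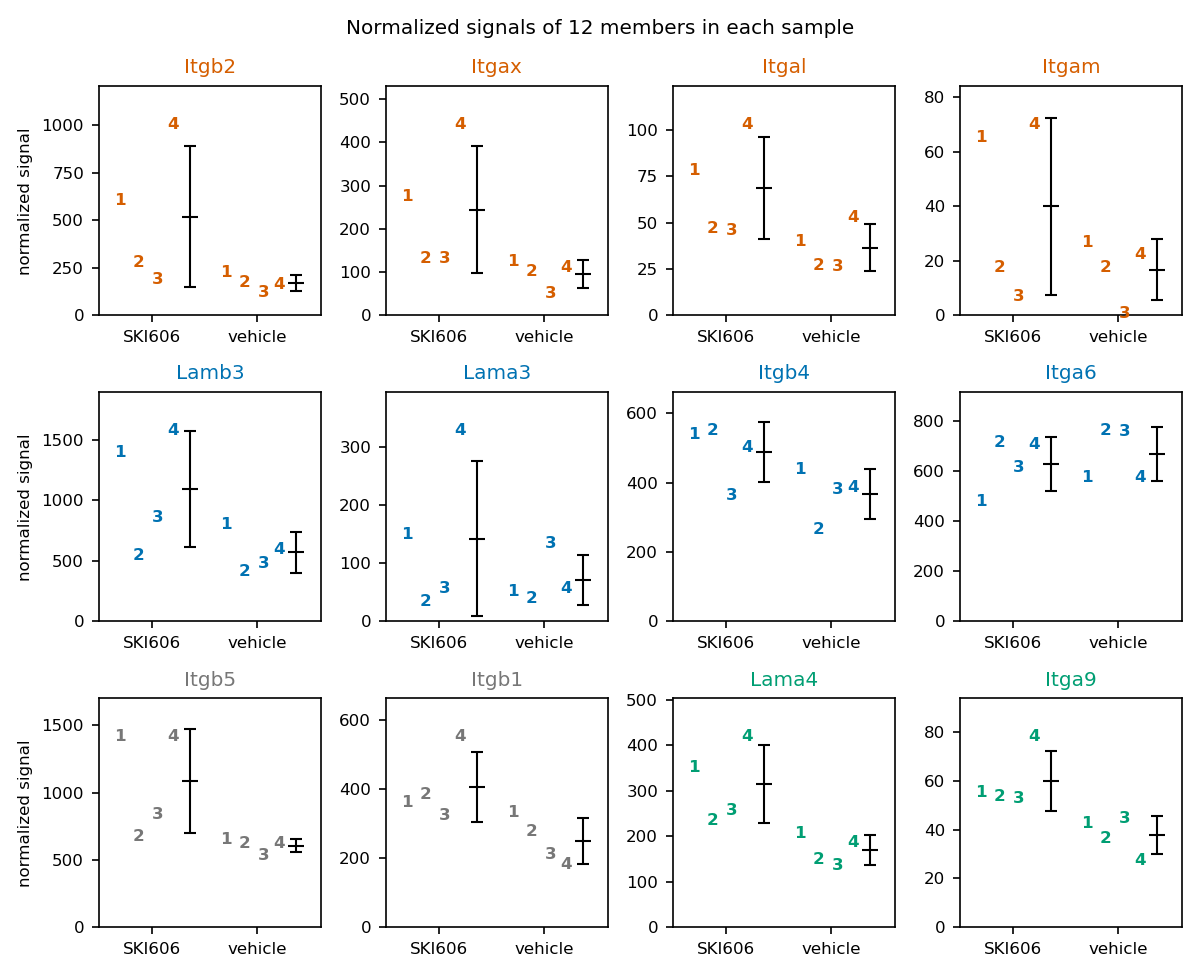
Digits are the sample numbers at their normalized signals in SKI606 and vehicle samples for 12 members, and the bars beside them are the mean ± SD (n = 4 each). In Itgb2, Itgax, Itgal and Itgam samples 1 and 4 lead the SKI606 group, Lama3 is high in SKI606 samples 1 and 4 and vehicle sample 3, and Itga6 overlaps between groups.

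Among the epithelial members the laminin-332 chain gene Lamb3 read higher on average, while the alpha chain of the hemidesmosome integrin did not. Of 8 epithelial members 6 lay above 0, with a median of 0.40. Lamb3, which encodes the beta 3 chain, read 1393, 544, 860.0 and 1580 in SKI606 samples, against 801, 412.5, 479 and 595 in vehicle samples. SKI606 sample 2 lay inside the vehicle range, and the log2 fold change was 0.85 ± 0.34. It was the 1 epithelial member of 8 (12.5%, against 6.07% of all genes) higher at an unadjusted p under 0.05. With 1 sample left out its unadjusted limma p ranged from 0.003 without SKI606 sample 2 to 0.094 without SKI606 sample 4.

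Lama3, the alpha chain of the same trimer, followed the samples rather than the groups. It read 150, 35.0, 57.2 and 329 in SKI606 samples, against 51.6, 39.5, 135 and 57.1 in vehicle samples. The 3 samples that stood apart were the 3 highest, and the log2 fold change of 0.59 ± 0.56 was -0.09 without them. It was 0.09 without SKI606 sample 4, 1.01 without SKI606 sample 2, and 0.90 without vehicle sample 3.

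Itga6 and Itgb4 pair in hemidesmosomes. Itgb4 read 539, 551, 363 and 503 in SKI606 samples, against 437, 266.5, 380.1 and 386 in vehicle samples, a log2 fold change of 0.40 ± 0.19, which was 0.26 without vehicle sample 2. SKI606 sample 3 lay below 3 of the vehicle samples. Itga6 read 480.5, 714, 616 and 707 in SKI606 samples, against 576, 764, 760.4 and 574 in vehicle samples. SKI606 sample 1 was the lowest and vehicle samples 2 and 3 were the highest, with the other samples of both groups between them. The log2 fold change was -0.09 ± 0.18 by this probe set and 0.14 by the dimmer one. Of the 20 members with several probe sets, 8 had probe sets that disagreed in sign. Itga6 was the 1 whose probe sets of mean signal 50 or more did so.

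The other epithelial members were Itga3, the laminin-binding partner of beta 1, at 0.40 ± 0.19, Lama5, the alpha chain of laminins of epithelium and vessels, at 0.45 ± 0.26 (0.25 without SKI606 sample 1, 0.70 without SKI606 sample 2), and the dim genes Itga2 at 0.00 ± 0.17 and Itgb6 at -0.15 ± 0.17. Itga2, a collagen receptor chain, and Itgb6, which binds latent TGF-beta, read at most 20.6 in every sample. Luminal markers were above 0 in 4 of 10, with a median of -0.07, and basal markers in 9 of 10, with a median of 0.71. The summed basal signal was 2060 to 13539 in SKI606 samples and 2415 to 5951 in vehicle samples, with SKI606 samples 1 and 4 highest. The part of these markers in the laminin-332 values was not tested.

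All 8 stromal and vascular members lay above 0, with a median of 0.61. Lama4 encodes the laminin alpha chain of blood vessels. It read 351, 236, 257 and 420.1 in SKI606 samples, against 206, 149, 137 and 187 in vehicle samples. Every SKI606 sample lay above every vehicle sample, and the log2 fold change was 0.82 ± 0.21, the smallest unadjusted p among the members. The dim second probe set of the gene stood at 0.12.

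Itga9, a receptor chain for tenascin and other ligands, was higher without overlap as well, at 55.1, 53.6, 52.5 and 78.1 in SKI606 samples, against 42.6, 36.5, 44.4 and 27.4 in vehicle samples (0.50 ± 0.17). Itga1, a collagen receptor chain of mesenchymal cells and vessels, was dim, at a mean signal of 22.5. It read 40.4, 14.4, 27.5 and 51.4 in SKI606 samples, against 14.5, 19.5, 3.62 and 9.12 in vehicle samples. SKI606 sample 2 was inside the vehicle range, and the log2 fold change was 0.81 ± 0.27, with the dimmer probe set at -0.17. Itga5, the fibronectin receptor chain, stood at 1.03 ± 0.40, with SKI606 samples 1 and 4 at 314.5 and 277, SKI606 samples 2 and 3 at 106 and 77.4, and vehicle samples from 51.6 to 90.6.

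Itga8, the nephronectin receptor chain, read 134, 480.2, 248 and 258.5 in SKI606 samples, against 231, 288, 125 and 234 in vehicle samples. SKI606 sample 2 was highest and SKI606 sample 1 among the lowest, and the log2 fold change of 0.26 ± 0.36 became -0.03 without SKI606 sample 2 and 0.54 without SKI606 sample 1. It also moved by over 1.5 times without vehicle sample 2 or 3. Itga7, a laminin receptor chain of muscle, stood at 0.73 ± 0.33, and at 0.46 without SKI606 sample 1. The muscle laminin chain Lama2 stood at 0.30 ± 0.32, and at 0.01 without vehicle sample 3, 0.09 without SKI606 sample 2 and 0.48 without vehicle sample 4. The cartilage integrin chain Itga10 stood at 0.17 ± 0.20, and between 0.08 without vehicle sample 2 and 0.34 without vehicle sample 4, with moves of over 1.5 times also without vehicle sample 1 or SKI606 sample 1. Fibroblast markers were above 0 in 10 of 10 (median 0.78), with sums of 16765 to 29677 in SKI606 samples and 12868 to 15855 in vehicle samples. Endothelial markers were above 0 in 10 of 10 (median 0.68), with sums of 1051 to 2248 in SKI606 samples and 710 to 1185 in vehicle samples. In both lists 0 markers had a mean signal under 16, and their part in the stromal values was not tested.

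Of the 9 broadly expressed members 8 lay above 0, with a median of 0.36. Itgb5, the vitronectin receptor beta chain that pairs with alpha v, read 1413, 675, 839.8 and 1418 in SKI606 samples, against 649, 621, 536 and 622 in vehicle samples. The groups did not overlap, although SKI606 sample 2 exceeded vehicle sample 1 by little. The log2 fold change was 0.76 ± 0.24, and the 4 probe sets of the gene lay between 0.53 and 0.80.

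Itgb1, the partner of most matrix-binding alpha chains, read 361.5, 385, 323 and 552 in SKI606 samples, against 331, 277, 211 and 183 in vehicle samples. Only vehicle sample 1 reached the SKI606 range. Its log2 fold change was 0.67 ± 0.22, and 0.64 by the other bright probe set. Itgav, the alpha v chain, read 419.6, 961, 631 and 953 in SKI606 samples, against 466, 519, 354 and 681 in vehicle samples, which overlapped at 0.50 ± 0.29. The other probe sets of Itgav, all dimmer, lay between -0.24 and 0.38.

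Among the laminin beta and gamma chains, Lamb1 showed the narrowest groups. It read 373, 347, 368 and 381 in SKI606 samples, against 293, 292, 278 and 322 in vehicle samples, without overlap. Its log2 fold change was 0.30 ± 0.12, and the other probe sets of the gene, all dimmer, lay between -0.20 and 0.45. Lamb2 stood at 0.50 ± 0.21 and Lamc1, the common gamma chain, at 0.36 ± 0.18, with its dimmer probe set at 0.93. Itgb8, which binds latent TGF-beta, stood at 0.36 ± 0.34, and at 0.73 without SKI606 sample 1, 0.14 without SKI606 sample 2 and 0.21 without SKI606 sample 4, and Lamc3 was dim, at 0.05 ± 0.17. Lama1, the alpha chain of the embryonic laminin-111, was the 1 broad member below 0, at -0.43 ± 0.25 (-0.28 without vehicle sample 4 or SKI606 sample 4), with 29.2 to 68.2 in SKI606 samples and 43.2 to 98.6 in vehicle samples.

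The promoters of the members without overlap (Itgax, Itgb5, Itga9 and Lamb1) are shown, as far as the promoter table used holds them, because these genes had the most regular differences, and that of Itgam because it lies on the same chromosome as Itgax and belongs to the same leukocyte family. Each window runs from 250 bases before the gene start to 50 after it, on GRCm38.p6. Capitals mark 3 motifs on either strand: GAGGAA as found in PU.1 sites of myeloid genes, TGACTCA as the AP-1 site and GGGCGG as the Sp1 box. On the minus strand their letters appear reversed and complemented. These motifs did not overlap in the 5 windows.
Itgax, chr7:128129300-128129599, plus strand: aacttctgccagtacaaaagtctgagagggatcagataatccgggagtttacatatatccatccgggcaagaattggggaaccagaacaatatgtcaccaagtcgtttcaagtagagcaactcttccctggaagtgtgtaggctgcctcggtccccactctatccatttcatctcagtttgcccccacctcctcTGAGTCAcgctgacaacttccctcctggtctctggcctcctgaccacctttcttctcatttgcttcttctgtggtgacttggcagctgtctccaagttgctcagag
Itgam, chr7:128062390-128062689, plus strand: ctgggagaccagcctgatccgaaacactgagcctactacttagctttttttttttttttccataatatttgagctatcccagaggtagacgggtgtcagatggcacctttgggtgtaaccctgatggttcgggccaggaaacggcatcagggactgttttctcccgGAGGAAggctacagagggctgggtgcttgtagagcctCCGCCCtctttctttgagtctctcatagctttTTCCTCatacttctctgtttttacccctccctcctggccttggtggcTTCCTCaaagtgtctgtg
Itgb5, chr16:33829415-33829714, plus strand: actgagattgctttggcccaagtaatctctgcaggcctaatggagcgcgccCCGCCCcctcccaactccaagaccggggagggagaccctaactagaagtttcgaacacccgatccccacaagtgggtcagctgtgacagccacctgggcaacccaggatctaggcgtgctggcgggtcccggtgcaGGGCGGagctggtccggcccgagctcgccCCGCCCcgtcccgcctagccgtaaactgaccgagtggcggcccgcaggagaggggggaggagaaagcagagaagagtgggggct
Itga9, chr9:118711442-118711741, plus strand: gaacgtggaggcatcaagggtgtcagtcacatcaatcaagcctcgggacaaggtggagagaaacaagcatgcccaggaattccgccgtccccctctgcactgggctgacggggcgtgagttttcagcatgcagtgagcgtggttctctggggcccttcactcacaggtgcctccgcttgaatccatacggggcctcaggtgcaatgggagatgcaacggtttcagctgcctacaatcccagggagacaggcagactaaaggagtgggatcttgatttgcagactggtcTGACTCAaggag
Lamb1, chr12:31265043-31265342, plus strand: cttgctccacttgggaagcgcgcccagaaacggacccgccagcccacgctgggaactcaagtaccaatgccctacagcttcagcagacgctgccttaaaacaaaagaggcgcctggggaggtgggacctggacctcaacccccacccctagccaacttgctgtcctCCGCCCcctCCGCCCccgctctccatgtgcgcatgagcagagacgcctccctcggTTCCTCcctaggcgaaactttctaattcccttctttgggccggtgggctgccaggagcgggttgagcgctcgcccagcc

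The windows differ in what they hold. Itgam had 3 matches to GAGGAA and Itgax had 0, whereas Itgax and Itga9 had 1 match each to TGACTCA. Itgb5 had 3 matches to GGGCGG, and Lamb1 had 2 matches to GGGCGG and 1 to GAGGAA. Of the 34 members 22 have a promoter in the table, in 25 windows, of which 13 hold GAGGAA, 2 hold TGACTCA and 12 hold GGGCGG. Over all 32851 windows 28.3% hold GAGGAA, 5.20% hold TGACTCA and 35.7% hold GGGCGG. The matches are descriptions of the letters in these windows.

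Set against each other within a sample, the blood cell members were on average higher relative to the epithelial members in SKI606 samples, but the groups overlapped. The log2 ratio of their summed signals, blood cell over epithelial, was -1.31, -1.59, -1.81 and -0.97 in SKI606 samples, against -1.64, -1.82, -2.71 and -1.51 in vehicle samples. The means were -1.42 ± 0.36 in SKI606 samples and -1.92 ± 0.54 in vehicle samples (SD, n = 4 each). Vehicle sample 3 lay far below the rest. The difference of 0.50 was 0.23 without it, and -0.04 without the 3 samples that stood apart. Such sums are led by the brightest probe sets, and Itgb2 and Lamb3 had the highest mean signals in them.

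The epithelial members were also set against the luminal markers of the same sample. That log2 ratio was -3.29, -3.60, -3.65 and -2.81 in SKI606 samples, against -3.85, -3.98, -3.73 and -3.82 in vehicle samples. Every SKI606 sample lay above every vehicle sample, with SKI606 samples 2 and 3 close to vehicle sample 3. The difference between the means was 0.51, 0.33 without SKI606 sample 4 and 0.26 without the 3 samples that stood apart. Over the basal markers the same sum gave -2.02, 0.07, -0.13 and -1.86 in SKI606 samples, against -0.14, -0.62, -1.496 and -0.76 in vehicle samples. SKI606 samples 1 and 4 were the lowest, and the difference between the means was -0.23. It was 0.11 without SKI606 sample 1, 0.06 without SKI606 sample 4, -0.48 without vehicle sample 3 and 0.48 without the 3 samples. Against the leukocyte markers, the log2 ratio of the blood cell members was -2.33, -2.50, -2.65 and -2.28 in SKI606 samples and -2.59, -2.83, -3.51 and -2.45 in vehicle samples, which overlapped. That difference of 0.40 was 0.18 without vehicle sample 3 and 0.05 without the 3 samples. The stromal members over the fibroblast markers gave -4.52 ± 0.19 in SKI606 samples and -4.54 ± 0.14 in vehicle samples, less apart than the spread between samples.

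Without SKI606 samples 1 and 4 and vehicle sample 3, which leaves 2 SKI606 against 3 vehicle samples, the epithelial median was 0.03 and the blood cell median 0.10. The stromal median was then 0.37 and the broad median 0.23, against 0.00 over all genes. The members above 0 numbered 5 of 8 epithelial, 6 of 9 blood cell, 8 of 8 stromal and 8 of 9 broad genes. Itgb2 then stood at 0.29 ± 0.24, Itgax at 0.21 ± 0.17, Lamb3 at 0.23 ± 0.33 and Itgb5 at 0.25 ± 0.17, while Lama4 was at 0.43 ± 0.20, Itga9 at 0.43 ± 0.19 and Itgb1 at 0.44 ± 0.27. Of single samples, SKI606 sample 4 bore most on the epithelial class, whose median was 0.19 without it.

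**Figure D4:**
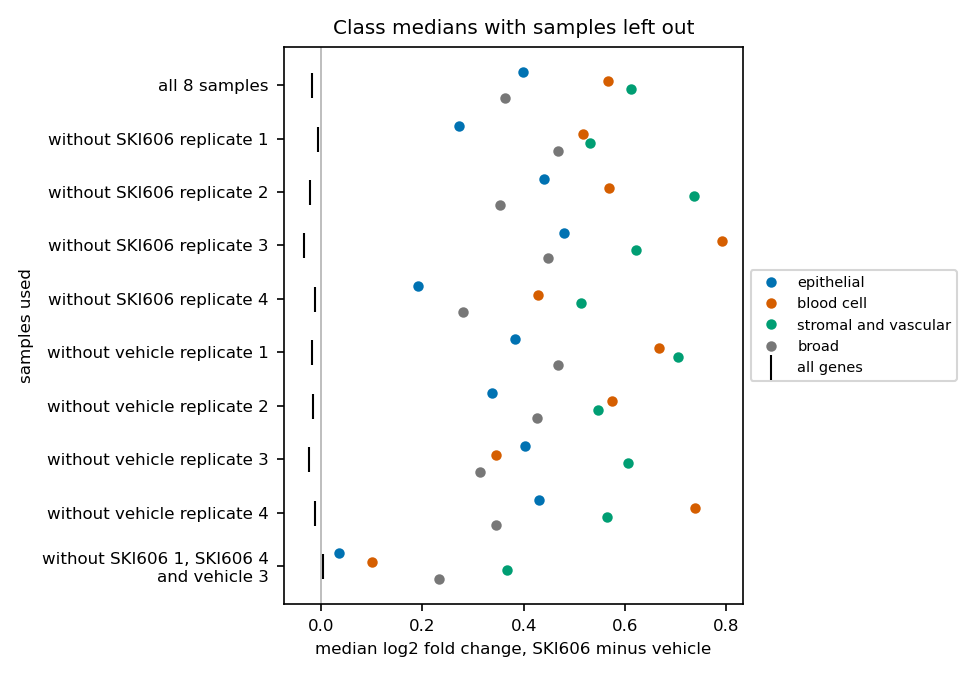
Points are class medians of the log2 fold changes, SKI606 minus vehicle, with all 8 samples, with each sample left out and without the 3 samples that stood apart, and black ticks are the median of all genes. The epithelial and blood cell medians drop to 0.03 and 0.10 without the 3 samples, and the stromal and broad medians stay at 0.37 and 0.23.

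The partners of these chains were described from 4 further lists, and in each list 0 genes passed the adjusted test. Over all genes 47.1% lay above 0, and at an unadjusted p under 0.05 6.07% were higher and 4.31% lower. Without the 3 samples that stood apart 9198 of 18193 genes lay above 0. At that p 374 (2.06%) were then higher and 340 lower. The hemidesmosome list includes the keratin genes Krt5 and Krt14, which are also among the basal markers. Of its genes 7 of 7 lay above 0 (median 0.40), but 2 of 7 (median -0.15) without the 3 samples that stood apart. The median with all samples was the value of Krt5, at 175 to 2635 in SKI606 samples and 399 to 1044 in vehicle samples. Plec, the plectin that ties beta 4 to keratin filaments, stood at 0.61 ± 0.18 without overlap, at 824 to 1319 in SKI606 samples and 660 to 735 in vehicle samples. The 3 probe sets of Plec lay between 0.03 and 0.84. Col17a1, the transmembrane collagen of hemidesmosomes, stood at 1.34 ± 0.59, at 24.9 to 298 in SKI606 samples and 19.5 to 31.1 in vehicle samples. The linker gene Dst was at 0.01 ± 0.21 and the tetraspanin gene Cd151 at 0.10 ± 0.14. The 4 probe sets of Dst lay between -0.26 and 0.01, and the 6 of Cd151 between -0.29 and 0.65.

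Of 21 measured basement membrane genes 16 lay above 0 (median 0.45), and 5 (23.8%) had an unadjusted p under 0.05 on the higher side and 0 on the lower. Without the 3 samples 13 lay above 0 (median 0.04) and 1 (4.76%) was higher at that p, against 2.06% of all genes. Agrn, which encodes the laminin-binding proteoglycan agrin, stood at 0.54 ± 0.17, and Bcam, a laminin alpha 5 receptor, at 1.25 ± 0.43, both without overlap. The other probe set of Agrn stood at 0.01. The matrix-binding protein genes Smoc1 and Smoc2 stood at 1.25 ± 0.43 and 0.76 ± 0.29.

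Integrin ligands lay above 0 in 17 of 20 (median 0.83), with 10 (50%) higher and 0 lower at an unadjusted p under 0.05. Without the 3 samples 12 lay above 0 (median 0.11), with 3 (15%) higher, against 2.06% of all genes, and 1 lower. Vcam1, the ligand of alpha 4 beta 1, stood at 1.14 ± 0.20, and its receptor chain Itga4 was among the 5 members below 0. Tgfb3, which encodes a latent growth factor, stood at 0.83 ± 0.17, Adam15, a disintegrin, at 0.56 ± 0.15, and Fgg, the fibrinogen gamma chain, which was dim, at 0.93 ± 0.27.

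The adaptors that link integrins to actin lay above 0 in 25 of 32 (median 0.27), with 7 (21.9%) higher and 0 lower at an unadjusted p under 0.05. Without the 3 samples 14 lay above 0 (median -0.01) and 0 were higher or lower at that p. The 7 included 3 genes best known from leukocytes, Lpxn, encoding leupaxin, at 0.82 ± 0.23, Fyb at 0.53 ± 0.18 and the kindlin gene Fermt3 at 0.73 ± 0.32. Tln1, the talin that binds integrin beta tails, stood at 0.53 ± 0.19, and Tgfb1i1, encoding the paxillin relative Hic-5, at 1.01 ± 0.40. The other two were the focal adhesion kinase relative Ptk2b at 0.68 ± 0.27 and Parva, encoding a parvin, at 0.43 ± 0.17. Among further adaptors of most cells, the alpha-actinin gene Actn1 was at 0.72 ± 0.37, the filamin gene Flna at 0.54 ± 0.27, the vinculin gene Vcl at 0.09 ± 0.20 and the integrin-linked kinase gene Ilk at -0.01 ± 0.25.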

How the data were processed

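RNA of 8 mammary tumours, 4 SKI606 and 4 vehicle, was labelled as Affymetrix recommends, per the labels' protocols. The deposited table holds linear ratios, and no source used here names its software. From the values, each signal had been divided by the median of its array and of its probe, with a constant divisor for dim probes and a lowest ratio of 0.01. The whole-number signals before these divisions were recovered as the smallest that give the ratios, and gave back 45101 of 45101 probes (100%) within a relative 0.0001. On 5000 simulated probes 99.8% were recovered exactly.

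Signals were quantile normalized, 16 was added and log2 was taken. limma 3.58.1 (lmFit and eBayes, R 4.3.3) was fitted to 45037 probes without 64 control probes, SKI606 minus vehicle, with Benjamini-Hochberg adjustment over all probes and a threshold of 0.05. The fit was tested on simulated data. Of the probes 34945 have 1 symbol, 932 several and 9160 are unnamed here; 34741 probes were matched to RefSeq genes by identifier, which altered 0 symbols. A gene is its 1-symbol probe with the highest mean. Detection calls, scan dates and batches were not analysed here.

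The members, classes, lists and alternatives were chosen with earlier results of these data known. Named with values in every sample were the hemidesmosome, laminin-332, beta 2, Itga4, Itgb7 and Itgae chains. Of the other classes, the 3 members of smallest unadjusted p and the 2 of highest mean were given in this way. Of the partner lists up to 4 of smallest p were named by fold change, with others named after their values were seen. The deviations of same-numbered samples had correlations over all probes of 0.02, 0.11, -0.15 and -0.11 for numbers 1 to 4. Such small values cannot decide whether the numbers pair the samples. Alternatives were other scalings, pseudocounts of 1 and 64, a mean signal of at least 50, the mean of all probes, array weights, the replicate block and samples left out.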

Additional observations from a re-analysis of the deposited data

Results flagged for a closer look

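Within groups of 4, 3 values of members lay far from the others of their group by Dixon's test, out of 68 groups looked at, and chance flags about 1 in 20 groups. Itga9 read 78.1 in SKI606 sample 4, with the next SKI606 value at 55.1. Itgae read 30.8 in SKI606 sample 2, with the other 3 SKI606 values at 28.5, a small step among tied values. Lamb2 read 224 in SKI606 sample 2, with the next SKI606 value at 328.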

How the results depend on the processing

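Under all 18 alternatives limma called 0 of the members and 0 of all genes, also at a threshold of 0.1, with the smallest adjusted p among members between 0.267 and 0.9999. At an unadjusted p under 0.05, all genes gave 1105 higher and 784 lower, against 1948 and 281 with median scaling, 1018 and 296 with the deposited ratios, and 374 and 340 without the 3 samples that stood apart. Scaling to array medians moved the median of all genes to 0.10 and log2 of the deposited ratios moved it to 0.16. With those ratios the blood cell median was 1.11, the stromal 1.03 and the broad 0.67 (relative to all genes 0.94, 0.87 and 0.51), and with median scaling the broad median was 0.61 (relative 0.51). The epithelial median was 0.65 with median scaling and 0.69 with those ratios (relative 0.55 and 0.52). A pseudocount of 64 gave a stromal median of 0.31 and a blood cell median of 0.32, and a pseudocount of 1 gave a blood cell median of 0.86. The order of the class medians depends on these settings. Without the 3 samples that stood apart the medians were 0.10 (blood cell), 0.37 (stromal), 0.03 (epithelial) and 0.23 (broad). Of 336 values of the 19 members named in full, 328 kept their sign. Part of these could not turn, so the count overstates stability. The replicate block and the filter on mean signal leave a fold change as it is by construction. So does the mean of all probes for a gene with 1 probe set. Itga6 turned to 0.16 with median scaling, 0.17 with the deposited ratios, 0.025 with the mean of all probes and 0.067 without the 3 samples, where Lama3 turned to -0.088 and Itgam to -0.45. With 1 sample left out, Itga6 ranged from -0.155 to 0.032 and Itga8 from -0.035 to 0.54. The cause was not tested. Leaving samples out of the within-sample ratios and of the partner lists was chosen after seeing the data. Each replicate number is held by a sample of both groups, so the replicate block cannot move a fold change or a class median. It can change only the p-values. The block called 0 genes and gave 1238 genes higher at an unadjusted p under 0.05. Of the members 15 (44.1%, against 6.80% of all genes) were higher at that p with the block, against 13 without it. Dim members such as Itga4, Itgb7, Itga2, Itgb6, Itga1 and Itgam are limited by signals near those of unlit probes.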
